A study of Mus musculus with 88 samples.

Results

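The striated muscle myosin heavy chains are the motor proteins of the thick filament, and 8 of their genes were chosen by name from the deposited annotation: Myh1, Myh2, Myh3, Myh4, Myh6, Myh7, Myh7b and Myh8. All 8 were in the deposited tables, among 24453 genes. Their RNA was measured in 88 polyadenylated RNA libraries from 9 tissues of 10 male C57BL/6NTac mice, 5 with a knockout of Cdh15 (KO) and 5 wild type (WT). Cdh15 encodes M-cadherin, an adhesion protein of muscle precursor cells, and the study's title concerns its part in fetal muscle formation and in the number of fibres of adult muscle. The values below are mainly from the extensor digitorum longus (EDL), gastrocnemius, tibialis and soleus muscles and the heart, with 5 KO and 5 WT libraries each, and the same mice gave lung, liver, kidney and spleen (4 WT libraries in kidney and spleen). The KO mice were 65, 71, 72, 82 and 85 days old and the WT mice 65, 71, 72, 82 and 83 days old, and all had been fasted for 18 h. The labels name the target gene and the KO genotype only, without the allele, and the mice are called here by their animal numbers.

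Each adult muscle fibre is typed by the myosin heavy chain that it holds. Myh7 is the chain of slow type I fibres and, under the name beta, of the ventricle before birth. Myh2, Myh1 and Myh4 are the chains of the fast types IIa, IIx and IIb, in the order of rising shortening speed. Myh6, the alpha chain, is the main chain of the adult mouse heart, Myh3 and Myh8 are the embryonic and perinatal chains of developing and regenerating fibres, and Myh7b is an ancient slow-type chain whose transcript carries a muscle microRNA. The mouse EDL and tibialis are known as fast muscles rich in IIb and IIx fibres, and the mouse soleus as a muscle of type I and IIa fibres with few IIb fibres.

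On mm10, the build of the deposited annotation, Myh3, Myh2, Myh1, Myh4 and Myh8 stand in this order on the plus strand of chromosome 11, within 230334 bases from the start of Myh3 (67078300) to the end of Myh8 (67308633). Myh2 ends 2596 bases before Myh1 starts, Myh1 ends 13236 bases before Myh4, Myh4 ends 16676 bases before Myh8, and a gap of 68735 bases parts Myh3 from Myh2. Myh6 (54941921 to 54966607) and Myh7 (54970688 to 54994549) lie 4080 bases apart on the minus strand of chromosome 14, and Myh7b lies alone on the plus strand of chromosome 2 (155611243 to 155634307). Each gene has 39 to 42 exons and an exon length of 5992 to 6148 bases in the annotation. The 250 bases before the start of Myh1, Myh2, Myh4 and Myh8, from RefSeq on GRCm38.p6, are shown because these 4 neighbours share a stretch that the other members lack. Capitals mark a shared run of 14 bases and, where present, a match to the MEF2 motif.
Myh2 upstream, chr11:67170777-67171026, plus strand: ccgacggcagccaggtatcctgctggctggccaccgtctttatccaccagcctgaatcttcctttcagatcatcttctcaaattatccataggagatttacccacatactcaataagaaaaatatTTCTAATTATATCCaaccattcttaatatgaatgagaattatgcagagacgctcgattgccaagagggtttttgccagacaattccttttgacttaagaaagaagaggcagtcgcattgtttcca
Myh1 upstream, chr11:67199852-67200101, plus strand: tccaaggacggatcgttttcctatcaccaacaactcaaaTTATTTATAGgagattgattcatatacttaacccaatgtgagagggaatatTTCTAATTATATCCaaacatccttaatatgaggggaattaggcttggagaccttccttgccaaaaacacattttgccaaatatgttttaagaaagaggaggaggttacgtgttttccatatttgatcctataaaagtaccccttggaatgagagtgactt
Myh4 upstream, chr11:67237562-67237811, plus strand: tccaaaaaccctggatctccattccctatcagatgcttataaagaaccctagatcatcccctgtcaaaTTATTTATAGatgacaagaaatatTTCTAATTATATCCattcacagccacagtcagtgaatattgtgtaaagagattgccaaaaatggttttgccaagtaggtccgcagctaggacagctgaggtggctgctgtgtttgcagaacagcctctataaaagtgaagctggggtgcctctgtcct
Myh8 upstream, chr11:67276874-67277123, plus strand: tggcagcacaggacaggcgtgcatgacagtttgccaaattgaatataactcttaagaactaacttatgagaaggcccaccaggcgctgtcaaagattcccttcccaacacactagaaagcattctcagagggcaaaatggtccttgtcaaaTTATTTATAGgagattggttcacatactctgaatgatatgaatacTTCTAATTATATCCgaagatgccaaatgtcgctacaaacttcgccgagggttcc
The run TTCTAATTATATCC began 125 bases before the start of Myh2, 160 before Myh1, 158 before Myh4 and 54 before Myh8. It was in no other of 32526 RefSeq windows of the same length, and it was found by comparing the members' own sequences, so it is a description only. MEF2 matches, searched on both strands, stood 211 bases before Myh1, 182 before Myh4 and 99 before Myh8, and 2.89% of all windows held one. They are the letters TTATTTATAG in all 3. The TATA box letters TATAAA stood 32 bases before Myh1 and 31 before Myh4, again inside each of the 3 MEF2 matches and once more farther up in Myh4, and 12.3% of windows held them on one of the strands. Myh2 held neither. For Myh1 the RefSeq start is 12 bases from the deposited start.

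Introns of 3 members hold the sequences of related muscle microRNAs, which are shown because the levels of their host genes below differ between heart and soleus. RefSeq gives these mature forms on GRCm38.p6, with the seed (bases 2 to 8) in capitals.
mmu-miR-208a-3p, chr14:54949072-54949093, minus strand: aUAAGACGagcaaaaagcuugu
mmu-miR-208b-3p, chr14:54975710-54975731, minus strand: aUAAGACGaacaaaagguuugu
mmu-miR-499-5p, chr2:155622893-155622913, plus strand: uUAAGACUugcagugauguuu
The first lies in an intron of Myh6, the second in an intron of Myh7 and the third in an intron of Myh7b. The first and the second share the seed UAAGACG, while the third has the seed UAAGACU. The microRNAs themselves were not measured in these libraries of polyadenylated RNA.

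The 50 libraries of muscle and heart held 8.99 M to 25.1 M counts, with a median of 20.0 M. Levels are given as RPKM, reads scaled to exon length and to the library's total, which allows a comparison between genes. The deposited counts can be fractional, and 7 of the 8 members had a fractional count in all 50 libraries (Myh4 in 42). Since these genes are near copies of each other, a small part of any level may be reads of a neighbour, which makes the low levels uncertain. Cdh15 checked the labels: it was at 0.372 to 1.43 RPKM in the 20 KO muscle libraries and at 4.11 to 8.11 RPKM in the 20 WT ones, with no overlap. In bulk libraries, fewer fibres of a type and less RNA per fibre cannot be told apart.

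Together the 8 genes took 6.46% to 9.84% of all counts in KO EDL, gastrocnemius and tibialis libraries, and 6.57% to 10.3% in the WT ones. In heart the range was 2.51% to 2.78% in KO and 2.56% to 2.74% in WT libraries. Soleus had 2.84% to 5.88% in KO and 5.13% to 7.68% in WT libraries, and the WT range overlapped that of the WT fast muscles. Each library was led by 1 chain, which was Myh4 in 39 of the 40 muscle libraries and Myh6 in all 10 heart libraries.

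**Figure D1:**
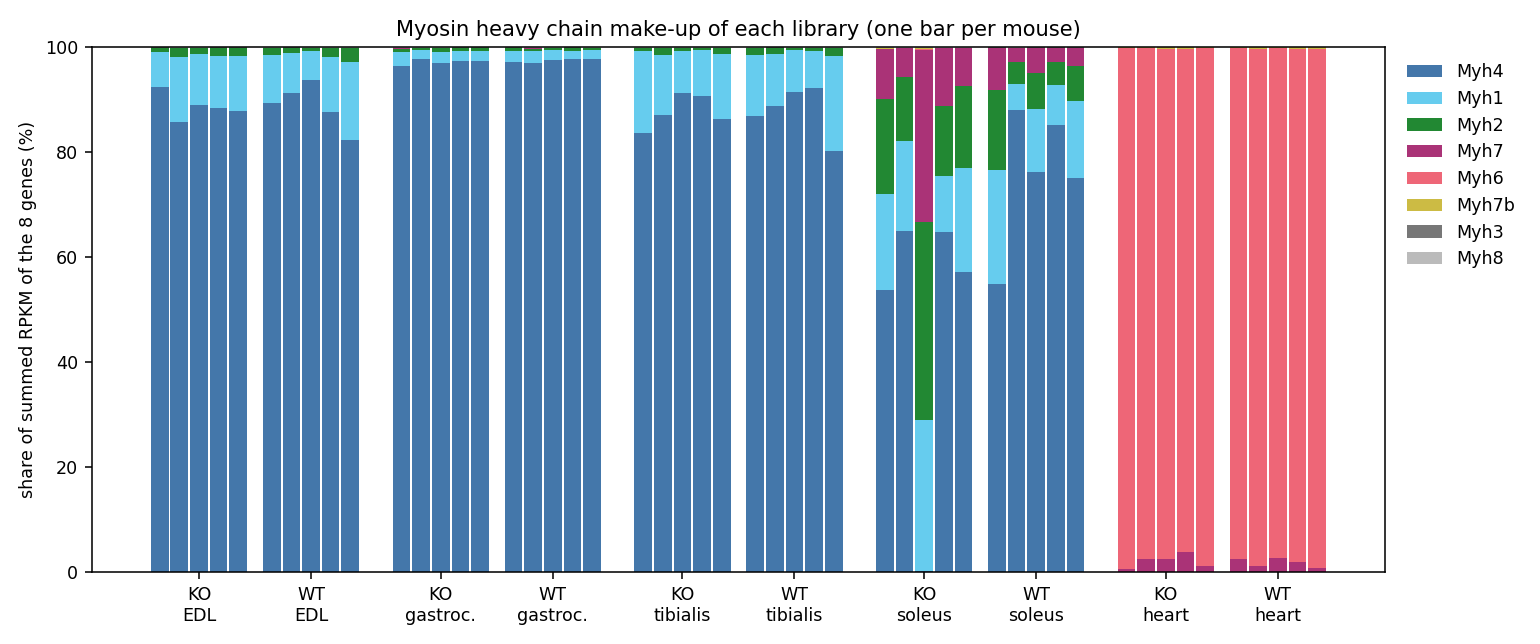
Share of each of the 8 genes in their summed RPKM (percent, vertical axis) in every library of 4 muscles and heart, with KO bars left of WT bars and 1 bar per mouse. Myh4 (blue) fills most of each muscle bar except in KO soleus 3805666, where Myh2, Myh7 and Myh1 make up nearly all of the bar, and Myh6 fills the heart bars.

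Myh4, the IIb chain, made up 97.2% ± 0.454 of the summed RPKM in KO gastrocnemius and 97.5% ± 0.288 in WT gastrocnemius (SD, n = 5 each). In EDL its share was 88.7% ± 2.47 in KO and 88.9% ± 4.31 in WT, and in tibialis 87.9% ± 3.17 in KO and 87.9% ± 4.8 in WT (SD, n = 5 each). Most of the remainder in these fast muscles was Myh1, the IIx chain, at 9.8% in KO EDL and 9.53% in WT EDL. Myh1 had 2.06% in KO and 1.89% in WT gastrocnemius, and 11.2% in KO and 11% in WT tibialis. Myh2, the IIa chain, took 0.456% to 1.48% as a group mean in these 3 muscles, and the other 5 genes together under 1% in each library.

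In WT soleus the shares were 75.9% ± 13.0 for Myh4, 12.1% ± 6.48 for Myh1, 7.47% ± 4.55 for Myh2 and 4.37% ± 2.20 for Myh7 (SD, n = 5). The IIb chain thus led the 5 libraries labelled WT soleus, at 55.0% to 88.1% of the summed RPKM. This is at odds with the known IIa and type I make-up of the mouse soleus. The slow chain marked the label all the same: Myh7 was at 308.9 to 682.5 RPKM in WT soleus against at most 21.44 RPKM in the other 15 WT muscle libraries. What the dissected pieces held beside soleus was not tested.

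**Figure D2:**
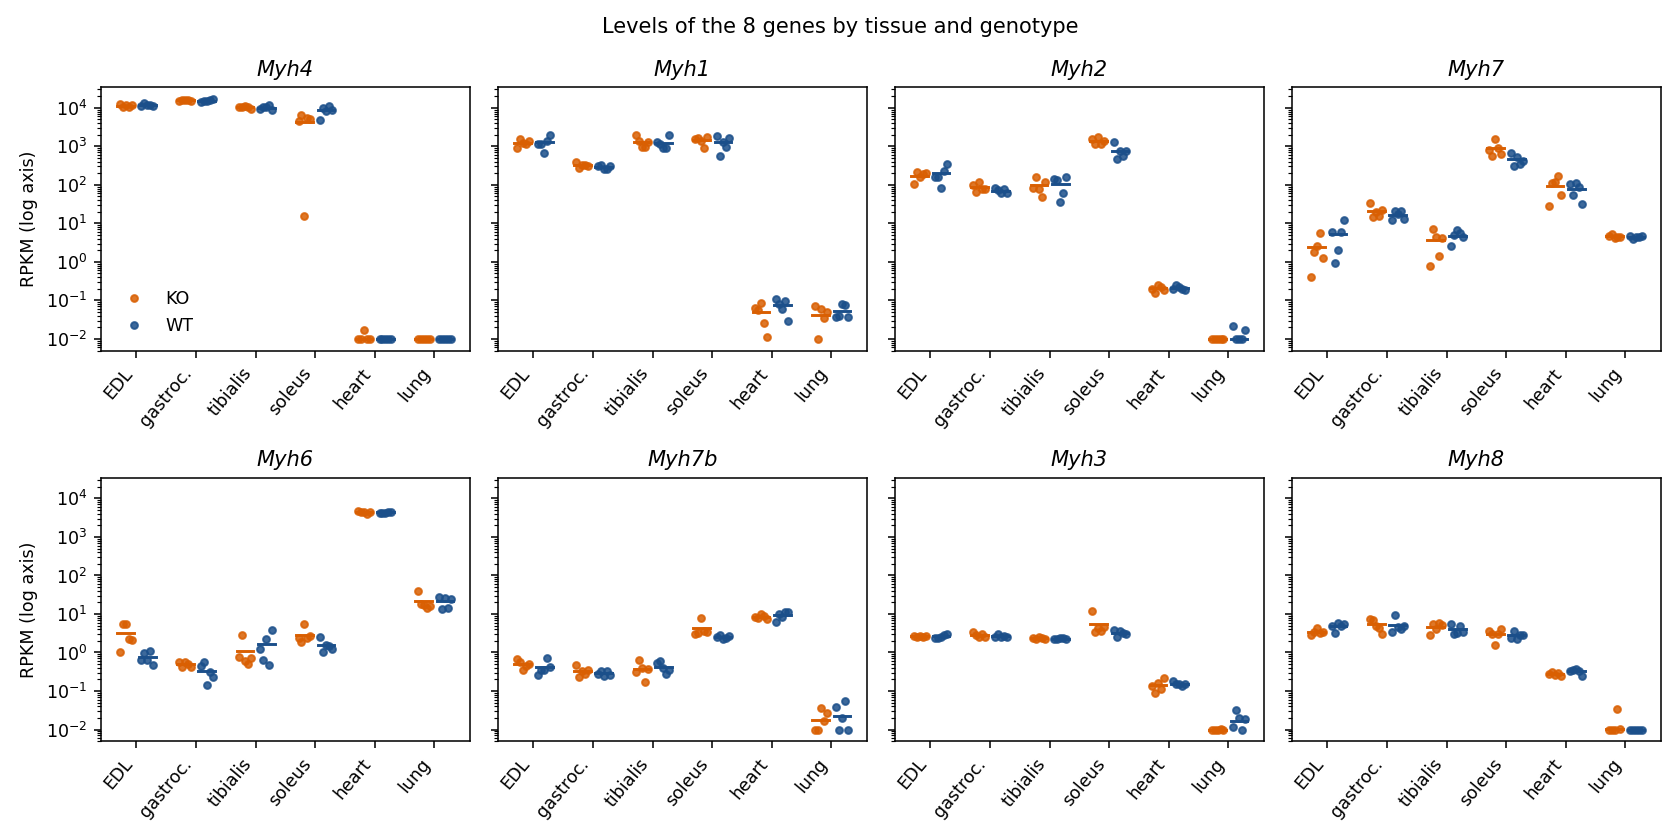
RPKM of each gene (log axis) in 6 tissues, with KO points (orange) left of WT points (blue), 1 point per mouse and a bar at the group mean. Values under 0.01 are drawn at 0.01. The genes differ in their levels between tissues, with Myh4 spanning 15.14 to 16720 RPKM in muscle and under 0.02 in heart.

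The WT libraries of the 4 muscles and heart were compared with each other to order the levels. Of the 8 members, 5 passed the threshold (edgeR quasi-likelihood test, adjusted p under 0.05) between soleus and EDL, 7 between soleus and gastrocnemius and 4 between soleus and tibialis. Of all genes tested, 17.7%, 31.2% and 13.5% passed in these 3 comparisons. Gastrocnemius stood apart from the other fast muscles, with 4 members called in EDL over gastrocnemius (15.5% of all genes) and 4 in gastrocnemius over tibialis (24.7%). Between EDL and tibialis no member passed, while 15.8% of all genes did. In heart over soleus all 8 passed, where 73% of all genes did. The DESeq2 Wald test gave the same counts except for 5 members between soleus and tibialis, adding Myh8 (log2 -0.65, adjusted p = 0.0337), and 1 between EDL and tibialis, Myh6 (log2 -1.16, adjusted p = 0.0408). By that test 19.9%, 33.5% and 15.9% of all genes passed for soleus over EDL, gastrocnemius and tibialis, 18.2% and 17.7% for EDL over gastrocnemius and tibialis, 27.7% for gastrocnemius over tibialis and 73.1% for heart over soleus.

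The partners of the chains in the sarcomere were compared as well. All 9 slow and cardiac partners tested were called higher in WT soleus than in WT EDL, with a median log2 fold change of 5.09, and 10 of 12 fast partners were called lower, with a median of -0.45. Over all genes 17.7% were called. Atp2a2, the calcium pump of slow fibres and heart, had 5.09, Tpm3, a slow tropomyosin, 4.47, Myl3, a slow and ventricular light chain, 6.21 and Tnni1, slow troponin I, 6.14. Against gastrocnemius, where 31.2% of all genes were called, 9 of 9 slow partners were called higher and 12 of 12 fast partners lower. Against tibialis, where 13.5% were called, 9 of 9 slow partners were called higher and 2 of 12 fast partners lower, the last a share near that of all genes.

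Myh7 gave the widest spread of the skeletal chains. WT soleus had 682.5, 308.9, 534.3, 354.2 and 411.7 RPKM, WT EDL 5.856, 0.9388, 2.078, 6.076 and 12.26, WT gastrocnemius 12.01, 20.38, 17.49, 21.44 and 12.89, and WT tibialis 2.599, 4.888, 6.638, 5.51 and 4.344. Soleus lay above every library of the other muscles, and EDL and tibialis overlapped. The log2 fold change of soleus was 6.32 (SE 0.581, adjusted p = 1.236e-07) over EDL, 4.63 (SE 0.535, adjusted p = 1.477e-06) over gastrocnemius and 6.47 (SE 0.587, adjusted p = 9.029e-08) over tibialis. Myh7 was also lower in EDL than in gastrocnemius (log2 -1.70, adjusted p = 0.0194) and higher in gastrocnemius than in tibialis (log2 1.85, adjusted p = 0.00887). The EDL call ended when mouse 3793543, 3793553, 3805657 or 3805673 was left out (adjusted p = 0.0547 to 0.106), and the tibialis call without 3805673 (adjusted p = 0.0503).

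Myh7b was also highest in soleus among the WT muscles, at levels far below those of Myh7. WT soleus had 2.475, 2.775, 2.263, 2.319 and 2.755 RPKM, while the other WT muscles had 0.241 to 0.707 RPKM. Soleus lay above every library of the other muscles, by a log2 fold change of 2.51 over EDL, 2.997 over gastrocnemius and 2.40 over tibialis (largest adjusted p = 3.018e-08). The highest level of Myh7b was in heart, at 6.197, 10.15, 8.194, 11.02 and 11.54 RPKM in WT mice, a log2 fold change of 1.64 over soleus (SE 0.179, adjusted p = 1.509e-08). The end of Myh7b overlaps that of Trpc4ap on the other strand.

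Myh2 was at 1307, 482.5, 742.0, 561.7 and 774.8 RPKM in WT soleus and at 163.5, 160.4, 84.46, 233.2 and 352.4 RPKM in WT EDL. The groups did not overlap, and soleus was higher by a log2 fold change of 1.90 (SE 0.380, adjusted p = 0.00118). Against gastrocnemius (60.98 to 81.61 RPKM) the log2 fold change of soleus was 3.31, and against tibialis (34.97 to 157.5 RPKM) it was 2.74. EDL was above gastrocnemius (log2 1.42, adjusted p = 0.0129), a call that ended without mouse 3805673 (adjusted p = 0.0587) or 3817948 (adjusted p = 0.138).

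Myh1 set gastrocnemius apart from the other 3 muscles. WT soleus had 567.5 to 1844 RPKM and WT EDL 678.4 to 2031 RPKM, against 302.6, 332.0, 264.3, 262.1 and 312.1 RPKM in WT gastrocnemius. WT tibialis had 905.9 to 2006 RPKM, and gastrocnemius lay below all 15 libraries of the others. Soleus was above gastrocnemius by a log2 fold change of 1.98 (SE 0.301) and EDL by 2.05 (SE 0.302), and gastrocnemius was below tibialis by -2.07 (SE 0.302), each with an adjusted p of at most 9.25e-05. Soleus, EDL and tibialis overlapped in Myh1, with log2 fold changes of -0.07 for soleus over EDL (SE 0.290) and -0.08 for soleus over tibialis (SE 0.290).

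Myh4 ran the other way: WT soleus had 4693 to 10860 RPKM, WT EDL 11210 to 13700, WT gastrocnemius 14400 to 16720 and WT tibialis 8860 to 11690. Gastrocnemius lay above every other WT muscle library. The log2 fold change was -0.97 for soleus over gastrocnemius (SE 0.148, adjusted p = 2.013e-05), -0.45 for EDL over gastrocnemius (SE 0.147, adjusted p = 0.0384) and 0.62 for gastrocnemius over tibialis (SE 0.147, adjusted p = 0.00353). For soleus over EDL it was -0.52 (SE 0.147, adjusted p = 0.0144). The EDL and gastrocnemius call ended without mouse 3805657, 3805673 or 3817948 (adjusted p = 0.115 to 0.152), and the soleus and EDL call without 3793553 (adjusted p = 0.0544) or 3805657 (adjusted p = 0.0614).

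The developmental chains were low in all 4 muscles of these adult mice. Myh3 had 2.19 to 3.81 RPKM in the 20 WT muscle libraries, and Myh8 2.30 to 9.69 RPKM. Myh8 was lower in WT soleus, at 2.39, 3.572, 2.302, 2.786 and 2.796 RPKM, than in WT EDL, at 4.747, 3.186, 5.996, 4.805 and 5.504 RPKM. The groups overlapped through mouse 3793553 alone, the log2 fold change was -0.85 (SE 0.232, adjusted p = 0.0122), and the call ended without mouse 3805657 (adjusted p = 0.0941) or 3817948 (adjusted p = 0.0765). Soleus was also below gastrocnemius in Myh8 (log2 -1.08, adjusted p = 0.00107) and slightly above tibialis in Myh3 (log2 0.39, adjusted p = 0.00807), the last call ending without mouse 3793543, 3805657 or 3805673 (adjusted p = 0.0578 to 0.0708). In heart Myh3 and Myh8 were at 0.0874 to 0.374 RPKM in the 10 libraries.

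Myh6 was the heart's chain. KO hearts had 4622, 4355, 4473, 4023 and 4422 RPKM and WT hearts 4313, 4242, 4162, 4483 and 4403 RPKM, which overlapped throughout. Its share of the summed RPKM was 97.6% ± 1.32 in KO and 98.0% ± 0.767 in WT hearts (SD, n = 5 each). WT soleus had 1.02 to 2.48 RPKM, which is a log2 fold change of 11.17 for heart over soleus (SE 0.544, adjusted p = 3.065e-14). In the skeletal muscles Myh6 was above gastrocnemius in soleus (log2 2.02, adjusted p = 0.00164) and below tibialis in gastrocnemius (log2 -2.17, adjusted p = 0.00171), all at 0.145 to 3.73 RPKM.

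Heart Myh7 varied far more between mice than Myh6. KO hearts had 28.34, 114.7, 116.2, 165.7 and 53.08 RPKM and WT hearts 108.0, 53.51, 112.8, 89.27 and 32.36 RPKM. The groups overlapped, and the lowest heart of each genotype was a fraction of its highest. The ratio of Myh7 to Myh6 in heart was 0.0223 ± 0.0137 in KO and 0.0184 ± 0.00833 in WT (SD, n = 5 each). Part of Myh7 is covered on the other strand by Mhrt, a cardiac noncoding RNA with 69.5 to 85.98 RPKM in KO and 67.1 to 89.1 RPKM in WT hearts. The sources used here do not say whether counting used the strand, so reads in the overlap cannot be told apart. Of the fast chains, Myh4 had at most 0.0168 RPKM in KO and 0.0097 RPKM in WT hearts, where 3 KO and 2 WT libraries had no read. A count of 0 allows up to 3 reads, for counting error only, and no fold change is given for Myh4.

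KO and WT were then compared within each muscle and heart. No member passed the threshold in any of the 5 tissues by the edgeR quasi-likelihood test with Benjamini-Hochberg adjustment over all genes tested. Of all genes, 0.00777% passed in EDL, 0.00792% in gastrocnemius, 0.0081% in tibialis and 0.00771% in soleus, which is Cdh15 alone each time, and 0% in heart. At an unadjusted p under 0.05 there were 590 genes in EDL, 246 in gastrocnemius, 219 in tibialis, 2235 in soleus and 421 in heart. The DESeq2 Wald test called 4 genes in EDL (0.0311%), 2 in gastrocnemius (0.0158%), 1 in tibialis (0.0081%), 165 in soleus (1.27%) and 0 in heart, among them Myh2 and Myh7 in soleus and Myh6 in EDL. In soleus it gave 4 of the 8 members an adjusted p. Heart tested 6 members, because Myh1 and Myh4 fell to the filter on low counts, and each muscle tested all 8.

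**Figure D3:**
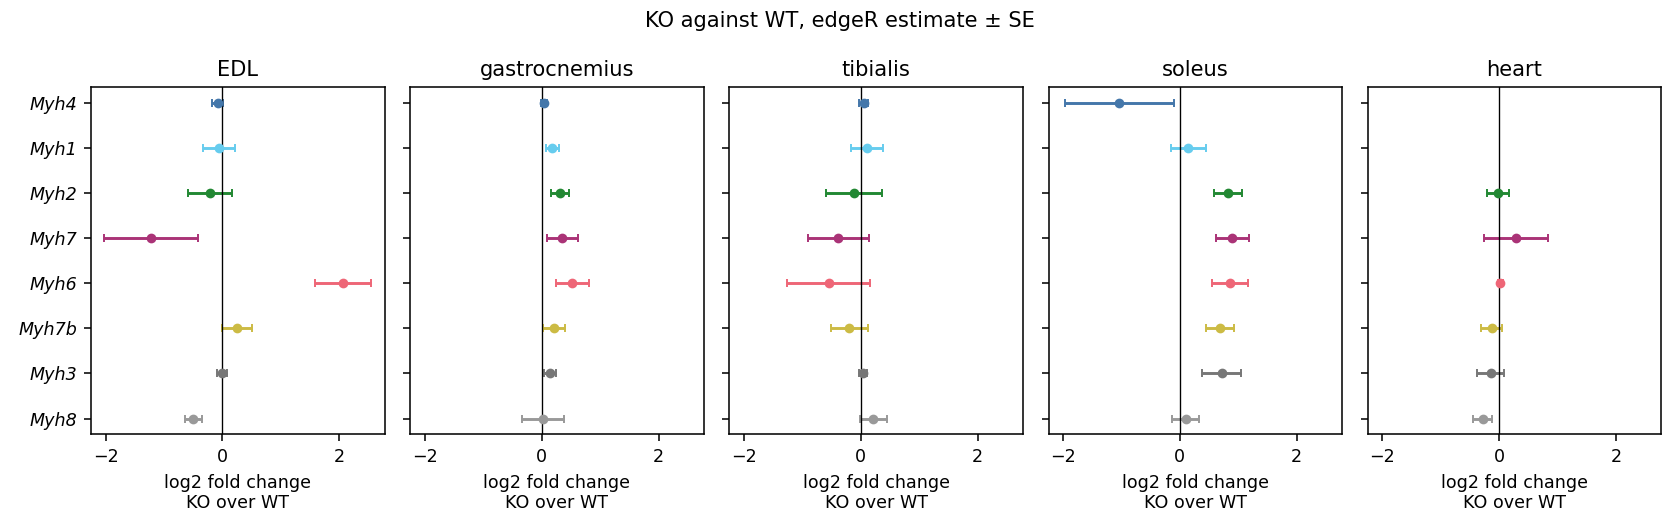
Log2 fold change of KO over WT (horizontal axis, edgeR estimate with SE) for each gene in 4 muscles and heart. In soleus Myh4 lies left of 0 with a wide error and the other genes lie right of it, and in EDL Myh6 stands at 2.07 and Myh7 at -1.22. In gastrocnemius and tibialis Myh4 stands at 0.05, and the points farthest from 0 are those of Myh6, at 0.53 and -0.55.

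Soleus had the most genes of low p, and its chains Myh4, Myh2 and Myh7 had log2 fold changes of 0.82 or more in size without passing the edgeR threshold. Myh4 was at 4533, 6357, 15.14, 5402 and 5088 RPKM in KO soleus and at 4693, 10150, 8401, 10860 and 8708 RPKM in WT soleus. Only the WT mouse 3793543 lay among the KO values, and the KO mouse 3805666 lay far below all others. The log2 fold change was -1.04 (SE 0.929, adjusted p = 0.573), or -0.72 (SE 0.230, adjusted p = 0.364) without 3805666.

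Myh2 had 1517, 1177, 1781, 1122 and 1391 RPKM in KO and 1307, 482.5, 742.0, 561.7 and 774.8 RPKM in WT soleus. The groups again overlapped through WT mouse 3793543, and the log2 fold change was 0.82 (SE 0.240, edgeR adjusted p = 0.238, DESeq2 adjusted p = 0.0250). Myh7 had 815.2, 549.4, 1552, 914.4 and 639.9 RPKM in KO soleus, against the WT values of 308.9 to 682.5 RPKM above. The overlap was again that mouse, with a log2 fold change of 0.90 (SE 0.282, edgeR adjusted p = 0.238, DESeq2 adjusted p = 0.0306). Leaving out KO mouse 3805666 gave 0.73 for Myh2 (edgeR adjusted p = 0.382) and 0.62 for Myh7 (edgeR adjusted p = 0.388).

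Myh7b was the only member whose KO soleus libraries all lay above the WT ones, at 3.081, 3.162, 7.936, 3.584 and 3.322 RPKM in KO and 2.263 to 2.775 RPKM in WT. Of all genes tested in soleus, 1.68% were above in this way and 1.22% below, and 1 member of 8 is too small a count to set against them. In the other tissues no member had separate groups, where 0.435% of genes were above and 0.365% below in EDL, 0.23% and 0.127% in gastrocnemius, 0.17% and 0.178% in tibialis, and 0.193% and 0.238% in heart. The log2 fold change was 0.69 (SE 0.236, adjusted p = 0.238), or 0.35 (SE 0.0759, adjusted p = 0.364) without 3805666. Myh1 overlapped fully, at 1545, 1684, 1357, 880.7 and 1770 RPKM in KO and 1844, 567.5, 1318, 968.2 and 1692 RPKM in WT (log2 0.14, SE 0.302). Of the low members, the log2 fold change was 0.86 for Myh6 (SE 0.303, adjusted p = 0.239), 0.71 for Myh3 (SE 0.325, adjusted p = 0.293) and 0.10 for Myh8 (SE 0.230, adjusted p = 0.839). KO mouse 3779417 stood apart in Myh3 with 11.73 RPKM, against 3.508 to 4.462 RPKM in the other KO and 2.512 to 3.814 RPKM in the WT soleus libraries, and without it the log2 fold change of Myh3 was 0.24.

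**Figure D4:**
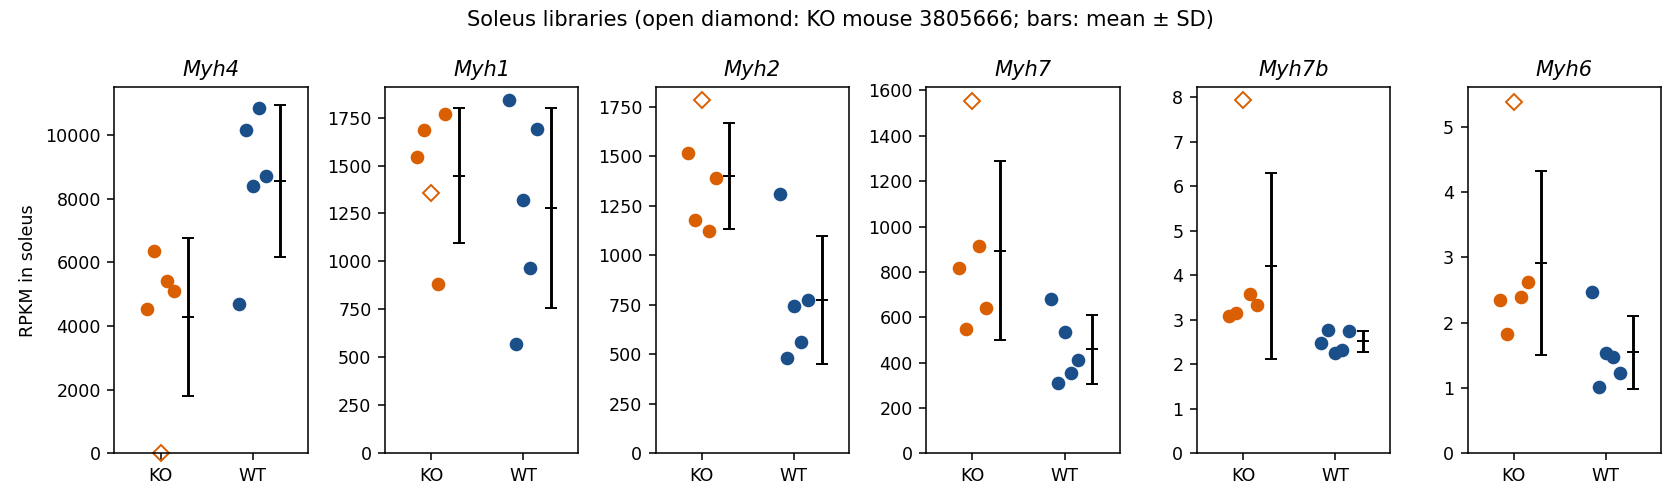
RPKM of 6 genes in soleus, KO (orange) left of WT (blue), 1 point per mouse, with the mean and SD in black and KO mouse 3805666 as an open diamond. Its Myh4 is at 15.14 RPKM, and its Myh2, Myh7, Myh7b and Myh6 are the highest of the 10 libraries.

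As a share of the summed RPKM, Myh4 had 53.8%, 65.0%, 0.320%, 64.8% and 57.1% in KO soleus and 55.0%, 88.1%, 76.3%, 85.2% and 75.1% in WT soleus. The means were 48.2% ± 27.2 in KO and 75.9% ± 13.0 in WT (SD, n = 5 each), a difference of -27.7 percentage points. Myh7 had 13.3% ± 11.2 in KO and 4.37% ± 2.20 in WT (SD, n = 5 each), a difference of 8.89 points. A two-sided exact permutation test over the 10 mice gave p = 0.0318 for each, and 0.127 after Benjamini-Hochberg adjustment over 8 comparisons (Myh4 and Myh7 in 4 muscles). Without KO mouse 3805666 the differences were -15.8 points for Myh4 (exact p = 0.0714) and 3.99 points for Myh7 (exact p = 0.0476, adjusted 0.286). In the other muscles the differences of the shares were -0.16, -0.29 and -0.07 points for Myh4 and under 0.03 points in size for Myh7, with exact p of 0.262 to 0.984.

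The ratios between Myh7, Myh2 and Myh1 overlapped between KO and WT soleus. The ratio of Myh7 to Myh2 was 0.460 to 0.871 in KO and 0.522 to 0.720 in WT soleus, and that of Myh1 to Myh2 was 0.762 to 1.43 in KO and 1.18 to 2.18 in WT. Within the sum of Myh1, Myh2 and Myh7 alone, a choice made after seeing the data, the Myh7 share differed by 4.83 points (exact p = 0.286).

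Among the 4 muscles, KO mouse 3805666 was low in Myh4 in soleus only. Its Myh4 was at 11550 RPKM in EDL, 15630 RPKM in gastrocnemius and 11270 RPKM in tibialis, within or above the range of the other KO mice. Of the genes of the fast fibre, 4 that were low along with Myh4 in its soleus were picked after their values were seen. They do not stand for all such genes. The 12 summed fast partners were at 27890 RPKM or more in every KO soleus library, against a KO median of 45630 RPKM. Actn3, the alpha-actinin of fast fibres, was at 26.14 RPKM, against 821.3 to 1139 in the other KO and 872.4 to 2006 in the WT soleus libraries. Pvalb, the calcium buffer parvalbumin, was at 159.1 RPKM, against 1960 to 2912 in the other KO and 2299 to 4243 in the WT libraries. Mybpc2, the fast myosin-binding protein C, was at 40.97 RPKM, against 575.0 to 775.7 in the other KO and 579.8 to 1317 in the WT libraries. Atp2a1, the calcium pump of fast fibres of every type, stood at 2304 RPKM, against 4783 to 5869 in the other KO and 5531 to 7397 in the WT libraries. The library was not shallow, at 22.2 M counts.

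The sarcomere partners of the chains divided by fibre type in soleus without passing the test. All 9 slow and cardiac partners tested had a positive log2 fold change of KO over WT, with a median of 0.96, and all 12 fast partners a negative one, with a median of -0.53. Over all genes tested the median was 0.02, and 53.4% were positive. The summed slow and cardiac partners were at 6847 to 20170 RPKM (median 8868) in KO and 4145 to 7873 RPKM (median 5196) in WT soleus. The summed fast partners were at 27890 to 52730 RPKM (median 45630) in KO and 45250 to 67070 RPKM (median 62520) in WT. The medians of the lists were not computed without KO mouse 3805666. The part of other muscle in the pieces labelled soleus was not tested, for these partners or for the chains above. In these libraries it cannot be told apart from the genotype. Of all listed genes those of smallest p were Sln, which encodes the calcium pump inhibitor sarcolipin (log2 1.80, SE 0.345), Mafa, a large Maf transcription factor (log2 -1.62, SE 0.354), Mb, which encodes the oxygen store myoglobin (log2 0.70, SE 0.182), and Ncam1, a neural adhesion molecule (log2 0.53, SE 0.141), each with an adjusted p of 0.238. Mb was at 4812 to 8528 RPKM in KO and 2531 to 4632 RPKM in WT soleus, without overlap, and 1.68% of all genes tested lay above in this way. It is among the 8 adult skeletal muscle markers, of which 2 had a positive log2 fold change and 6 a negative one (median -0.24).

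Markers of other cells also leaned one way in soleus, with none past the threshold. All 5 macrophage markers had a positive log2 fold change (median 0.60), as had all 6 adipocyte markers (median 0.34), all 7 Schwann cell markers (median 0.30), all 5 smooth muscle markers (median 0.44) and all 5 endothelial markers (median 0.10). The summed macrophage markers were at 14.1 to 35.9 RPKM in KO and 10.2 to 20.1 RPKM in WT, and the summed adipocyte markers at 36.6 to 257.3 RPKM in KO and 27.2 to 209.9 RPKM in WT. Their part in the myosin differences was not tested. All 6 satellite cell markers were tested as well, with 3 above and 3 below 0 (median -0.05), and 5 of 8 markers of developing fibres were above 0 (median 0.14).

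In EDL the member of smallest p was Myh6, a minor chain there. KO EDL had 1.058, 5.501, 5.37, 2.175 and 2.134 RPKM and WT EDL 0.636, 0.9647, 0.6345, 1.123 and 0.4824 RPKM. KO was higher except for mouse 3779417, which lay just below the highest WT library. The log2 fold change was 2.07 (SE 0.477, edgeR adjusted p = 0.986, DESeq2 adjusted p = 0.0434). The cardiomyocyte markers overlapped between genotypes: the sum of 12 was at 13.96 to 66.5 RPKM in KO and 16.2 to 50.1 RPKM in WT EDL. The 5 markers named here are those without a read in KO EDL, WT EDL or both, and the rest of the 12 had reads in both genotypes. Nppa, Mybpc3 and Nkx2-5 had no read in any of the 10 libraries. The atrial markers Myl7 and Mybphl had no read in WT EDL, while in KO EDL Myl7 had 1 read in 1 library (mouse 3805666) and Mybphl 1 to 3 reads in 3 libraries. Counts this low cannot rank the mice. The part of cardiomyocytes in the EDL level of Myh6 was not tested.

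The other EDL members overlapped between genotypes. Myh8 had 2.899, 3.37, 4.327, 3.193 and 3.433 RPKM in KO EDL, against 3.186 to 5.996 RPKM in WT EDL (log2 -0.50, SE 0.141, adjusted p = 0.986). Myh7 had 0.414 to 5.67 RPKM in KO and 0.939 to 12.3 RPKM in WT EDL (log2 -1.22, SE 0.803), and the fold change was -0.62 without WT mouse 3817948 and -1.84 without KO mouse 3805676. The slow and cardiac partners had log2 fold changes of the sign opposite to that in soleus, with 0 of 9 positive and a median of -0.74, and none passed. Of the markers of other cells in EDL, 0 of 6 adipocyte markers (median -0.65) and 1 of 7 Schwann cell markers (median -0.11) were above 0, and 4 of 5 smooth muscle markers (median 0.19). The summed adipocyte markers were at 7.63 to 74.7 RPKM in KO and 30.2 to 126.9 RPKM in WT, and the part of these cells was not tested. The 4 listed genes of smallest p were Thrb, a thyroid hormone receptor (log2 -0.34), and the slow troponins Tnnc1 (log2 -1.70), Tnni1 (log2 -1.63) and Tnnt1 (log2 -1.39), each with an adjusted p of 0.986.

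In gastrocnemius and tibialis the leading chain was close between genotypes. Myh4 had a log2 fold change of 0.05 in gastrocnemius (SE 0.0513) and 0.05 in tibialis (SE 0.0731). All 8 members were above 0 in gastrocnemius, with a median of 0.20 against -0.01 over all genes, and 4 of 8 in tibialis, with a median of -0.04. Myh7 had 33.78, 14.68, 19.18, 15.91 and 22.33 RPKM in KO gastrocnemius and 12.01 to 21.44 RPKM in WT (log2 0.35, SE 0.267). The slow partners there were above 0 in 9 of 9, with a median of 0.37, and the fast partners in 3 of 12, with none past the threshold. Of the markers of other cells in gastrocnemius, 0 of 7 Schwann cell markers (median -0.36), 0 of 5 endothelial markers (median -0.16) and 6 of 6 adipocyte markers (median 0.14) were above 0. The summed Schwann cell markers were at 99.4 to 133.0 RPKM in KO and 92.6 to 193.2 RPKM in WT, and the part of these cells was not tested. In tibialis Myh6 was wide in both genotypes, at 0.497 to 2.86 RPKM in KO and 0.477 to 3.73 RPKM in WT (log2 -0.55, SE 0.706). Slow partners in tibialis were above 0 in 1 of 9 (median -0.19) and fast partners in 7 of 12 (median 0.02). Schwann cell markers there were above 0 in 0 of 7 (median -0.55) and adipocyte markers in 6 of 6 (median 0.52). Endothelial markers were above 0 in 1 of 5, macrophage markers in 4 of 5 and smooth muscle markers in 0 of 4. None of them passed, and the part of these cells was not tested.

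In heart the 6 tested members had log2 fold changes of -0.28 to 0.29. Myh6 had 0.02 (SE 0.0376), Myh7 0.29 (SE 0.545) and Myh7b -0.13 (SE 0.183), each with an adjusted p of 0.999. The error of Myh7 was larger than its fold change, and that of Myh6 was the smallest of the 6.

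Whether soleus differed from the other muscles in its response was tested over the 40 muscle libraries. The KO-WT difference in soleus minus the mean KO-WT difference in EDL, gastrocnemius and tibialis was 1.32 for Myh7 (SE 0.597, adjusted p = 0.259), 0.82 for Myh2 (SE 0.408, adjusted p = 0.307) and -1.03 for Myh4 (SE 0.592, adjusted p = 0.387). Myh3 had the smallest p of the members, with 0.66 (SE 0.222, adjusted p = 0.127), or 0.21 without KO mouse 3779417, and 0% of all genes passed. At an unadjusted p under 0.05 there were 2225 genes, and 384 genes passed the adjusted threshold without WT mouse 3793543, 337 without KO mouse 3793546 and 1 without WT mouse 3805657, with no member among them. With the mouse as a replicate block, since each mouse gave all 4 muscles, 591 genes passed and no member did (1.27 for Myh7, adjusted p = 0.257). The DESeq2 Wald test called 332 genes (2.45%) and none of the 6 members to which it gave an adjusted p. Of the listed genes those of smallest p were Mafa (log2 -1.67) and Ncam1 (log2 0.64), Tnnt2, cardiac and embryonic troponin T (log2 1.26), and Casq2, the slow calsequestrin (log2 0.85), with an edgeR adjusted p of 0.0621 to 0.0719, and each passed with the block (adjusted p = 0.0229 to 0.0249).

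Outside muscle and heart, Myh6 and Myh7 were measured in lung, an organ whose large veins are known to be sheathed by atrial-type heart muscle in mice. Lung Myh6 was at 40.12, 17.87, 17.43, 14.06 and 16.18 RPKM in KO and 28.04, 13.31, 26.0, 14.37 and 25.06 RPKM in WT mice. The groups overlapped. Lung Myh7 was at 4.144 to 5.247 RPKM in KO and 3.989 to 4.665 RPKM in WT, with far less spread. In WT lung over the mean of WT kidney, liver and spleen, Myh7 had a log2 fold change of 6.71 (SE 0.186, adjusted p = 5.561e-19) and Myh6 4.75 (SE 0.347, adjusted p = 2.943e-09). Both of the 2 members tested passed, and 79.6% of all genes did (81.3% by the DESeq2 Wald test, which called both as well).

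The 12 cardiomyocyte markers ranged together with lung Myh6. Their sum was at 162.5 to 329.4 RPKM in KO and 169.6 to 260.6 RPKM in WT lung, against 1.047 to 27.7 RPKM in the liver, kidney and spleen libraries of both genotypes. The lung with the highest sum had the highest Myh6 in each genotype, and the lung with the lowest sum the lowest. Myh7 was likewise highest and lowest in the WT lungs with the most and the least Myh6, at 4.665 and 3.989 RPKM. In KO lungs it was not: its highest and lowest values, 5.247 and 4.144 RPKM, were in lungs with 17.87 and 17.43 RPKM of Myh6. The ratio of Myh7 to Myh6 was 0.117 to 0.317 in KO and 0.166 to 0.307 in WT lung, above the 0.0412 that was the highest of all 10 hearts. The part of cardiomyocytes in the lung levels was not tested.

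**Figure D5:**
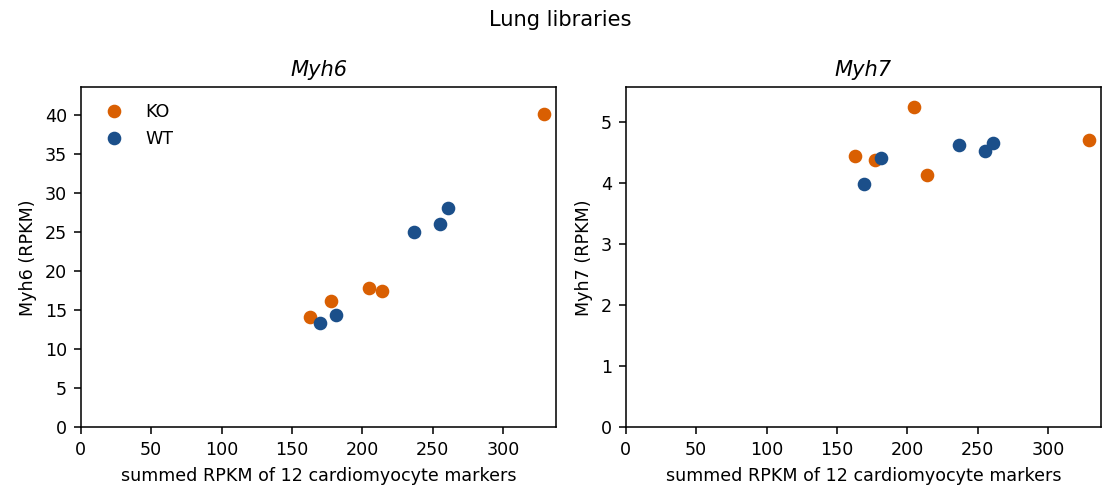
RPKM of Myh6 (left) and Myh7 (right) in each lung library (vertical axes) against the summed RPKM of 12 cardiomyocyte markers (horizontal axis), KO in orange and WT in blue. Myh6 lies between 13.31 and 40.12 RPKM and is highest where the markers are highest in each genotype, while Myh7 stays between 3.989 and 5.247 RPKM.

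Spleen held the IIb chain in a few libraries. Myh4 had 149 reads (2.85 RPKM) in KO spleen 3805666, and 93.9 reads (1.13 RPKM) and 104 reads (1.53 RPKM) in WT spleens 3793553 and 3805673. The other 6 spleens had no read. The same 3 libraries held the most muscle creatine kinase, Ckm, at 3.02 RPKM in the KO spleen and 1.03 and 2.14 RPKM in the WT spleens, against at most 0.268 RPKM in the other 6. Skeletal actin, Acta1, was at 2.65 RPKM in the KO spleen and at 1.47 and 1.95 RPKM in the WT spleens, against at most 0.391 RPKM in the rest. Ckm and Acta1 belong to the 8 adult skeletal muscle markers and were picked after their values were seen. The sum of all 8 was at 5.78 to 12.4 RPKM (median 6.79) in KO and 5.18 to 10.95 RPKM (median 7.58) in WT spleens. Whether the rest of the 8 followed Myh4 from library to library was not tested. The part of stray muscle tissue in the Myh4 reads of spleen was not tested.

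Finally, the genes most like each member were ranked by Pearson correlation of log2(RPKM + 1) over the 18 means of tissue and genotype, among 15751 genes. The points share tissues and mice, and most of the spread lies between muscle and other organs, so high values are common. Myh4 came with Actn3 (r = 0.9995), Atp2a1 (r = 0.999) and Myoz1 (r = 0.999), and Myh1 with Tnmd (r = 0.999), Mybpc1 (r = 0.996) and Chodl (r = 0.996). Myh2 came with Smtnl1 (r = 0.999), Chrna1 (r = 0.991) and Chodl (r = 0.990), Myh7 with Tnnc1 (r = 0.942), Myl3 (r = 0.923) and Myoz2 (r = 0.912), and Myh6 with Lrrc4b (r = 0.991), Rasl10b (r = 0.991) and Nppa (r = 0.990). Myh7 had the lowest best match of the 8. Myh3 came with Ppp1r27 (r = 0.989), Chodl (r = 0.986) and Myog (r = 0.986), and Myh8 with Aldoart1 (r = 0.993), Kcmf1 (r = 0.992) and Atp2b3 (r = 0.991). Myh7b came with D830013O20Rik (r = 0.984), Gm5532 (r = 0.983) and Mhrt (r = 0.973).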

How the data were processed

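RNA of 9 tissues from 10 mice was analysed in 88 libraries, grouped by the labels. The mouse was the replicate, so p-values of KO against WT within a tissue measure the spread between mice. Fits across tissues held no term for the mouse in the main setting, although each mouse gave several tissues. With the mouse as a replicate block, genes called for WT soleus over EDL went from 2446 to 3100. The genes and lists were chosen with earlier results of these data known. The deposited expected counts per gene on mm10, rounded to whole numbers, were tested in R 4.3.3 by the robust quasi-likelihood test of edgeR 4.0.16. Scaling was by TMM, genes needed 10 counts by filterByExpr and 15 in all, and p was adjusted by Benjamini-Hochberg over all genes tested (threshold 0.05). The authors deposited RPKM as well, which divide these counts by exon length and library total, and these gave levels and shares but entered no edgeR fit. Total counts were 8.206 M to 25.14 M, and 22 marker sequences, at most 0.0323% of a library, were left out. Aligner, counting tool and strand setting were not given in the sources used here. Shares were compared by exact permutation over the 10 mice. Each tissue was fitted alone for KO against WT, the WT muscles and heart in 1 fit of 25 libraries, and the muscle interaction in 1 fit of 40.

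Beside the 8 members and Cdh15, the text names list genes past the threshold or, up to 4 per comparison, of smallest p, the 3 genes most like each member, and genes said to be picked after their values were seen. It also names Mhrt and Trpc4ap, which overlap members, and the cardiomyocyte markers without a read in KO EDL, WT EDL or both. Alternatives were DESeq2 1.42.0 size factors and Wald test, no filter, age as a covariate, the mouse as a replicate block between tissues, shares over counts or over 4 chains, and each mouse left out. The fits were tested on simulated data.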

Additional observations from a re-analysis of the deposited data

Results flagged for a closer look

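Each gene was searched for a library far from the others of its group. Of 90 groups with a mean of at least 10 counts, 11 stood out. The cut-off passes about 1 in 20 groups of independent normal values. The groups here share mice and libraries, so that rate cannot be set against the 11. KO mouse 3805666 accounts for 5 of them: in soleus it had 15.14 RPKM of Myh4, 5.385 of Myh6 and 7.936 of Myh7b, and in spleen 2.848 of Myh4 and 0.4596 of Myh1. KO mouse 3779417 had 11.73 RPKM of Myh3 in soleus and 40.12 of Myh6 in lung. Tibialis of KO mouse 3793546 had 2.86 RPKM of Myh6. WT mouse 3793553 had 13700 RPKM of Myh4 in EDL and 9.688 of Myh8 in gastrocnemius. The liver of WT mouse 3817948 had 1.705 RPKM of Myh6, against 0.1564 to 0.5817 in the other 9 livers. Its summed cardiomyocyte markers, at 5.417 RPKM, were also the highest of the 10, against 1.047 to 3.362. The summed adult skeletal muscle markers reached 4.01 RPKM in WT livers (median 1.44) and 1.39 RPKM in KO livers. The part of heart or skeletal muscle tissue in the liver level of Myh6 was not tested.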

How the results depend on the processing

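Among values of members and listed genes under other settings, 631 kept direction and call, 11 passed the threshold only under the alternative and 1 changed sign: Myh8 in KO over WT gastrocnemius, at -0.047 with age as a covariate. Counts of called genes under the DESeq2 Wald test were 4 in EDL, 2 in gastrocnemius and 165 in soleus, and 332 for soleus against the other muscles, where edgeR called 0 without a block and 591 with the mouse as a replicate block. Pairing by mouse rests on the animal numbers in the labels, and the block changed no member's call, while it brought the listed genes Mafa, Ncam1, Tnnt2 and Casq2 past the threshold for soleus against the other muscles. The cause of these differences was not tested.

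With a mouse left out, called genes ranged from 1 to 2 for KO over WT in EDL, gastrocnemius and soleus, 0 to 384 for soleus against the other muscles, 1514 to 2349 for WT soleus over EDL, 2769 to 4053 over gastrocnemius and 1050 to 1675 over tibialis, and 1299 to 1893 for EDL over gastrocnemius and 1077 to 1991 over tibialis. For soleus against the other muscles, where 0 genes were called with all mice, 384 were called without WT mouse 3793543, 337 without KO mouse 3793546 and 1 without WT mouse 3805657. The count of 2 came without WT mouse 3805657 in EDL and gastrocnemius and without KO mouse 3793546 in soleus. The counts between WT muscles fell by over 1.5 times without mouse 3793543 in 5 comparisons (soleus over EDL, gastrocnemius and tibialis, EDL over gastrocnemius and tibialis), 3805657 or 3805673 in 2 each (soleus and EDL over tibialis, EDL over gastrocnemius and tibialis), and 3793553 (EDL over tibialis) or 3817948 (EDL over gastrocnemius) in 1 each. Log2 fold changes of KO over WT that crossed 0 were, in EDL, -0.24 to 0.20 (Myh1), -0.42 to 0.14 (Myh2) and -0.044 to 0.066 (Myh3), in gastrocnemius -0.14 to 0.36 (Myh8), in tibialis -0.071 to 0.34 (Myh1), -0.40 to 0.058 (Myh2) and -0.47 to 0.0056 (Myh7b), in soleus -0.057 to 0.30 (Myh1) and -0.028 to 0.28 (Myh8), and in heart -0.026 to 0.53 (Myh7) and -0.14 to 0.061 (Myh2). For soleus against the other muscles they were -0.11 to 0.26 (Myh1) and -0.11 to 0.61 (Myh6). Between WT muscles they were -0.27 to 0.093 (Myh1, soleus over EDL), -0.23 to 0.089 and -0.44 to 0.40 (Myh1 and Myh6, soleus over tibialis), -0.35 to 0.20 (Myh8, EDL over gastrocnemius), and -0.47 to 0.50, -0.13 to 0.053 and -0.51 to 0.12 (Myh7, Myh1 and Myh7b, EDL over tibialis). None of these had been called. Among members and listed genes, 17 values lost their edgeR call with a mouse left out and 15 gained one. The members that gained one were, by lowest adjusted p, Myh8 (0.00238, soleus over tibialis) and Myh3 (0.0191, soleus over EDL, and 0.0217, soleus over gastrocnemius). Further gains were Myh7b (0.0286) and Myh8 (0.0477) in gastrocnemius over tibialis and Myh6 (0.039) in EDL over tibialis. The KO minus WT difference of the Myh4 share ranged from -1.79 to 1.07 points in EDL and -1.987 to 1.007 points in tibialis. With 5 mice a group, a change of a low or variable member could go uncalled.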
